A study of Mus musculus with 5 samples.

Results

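The genes described here are 8 receptors that place B cells within lymphoid tissue and Klf2, a transcription factor that controls exit from it. They were chosen by gene symbol, and all 9 were found among the 23234 genes of the deposited table. The receptors are those for chemokines (Cxcr4, Cxcr5, Ccr6, Ccr7), for sphingosine 1-phosphate (S1pr1, S1pr2, S1pr4) and for oxysterols (Gpr183). They were measured by RNA sequencing in light zone B cells, the part where selection takes place of the germinal centre, taken from mouse spleen by sorting. The donor cells were naive B cells that carried ERT2cre(KI/+), a tamoxifen-activated Cre, B1-8hi(KI/+), a heavy chain knock-in with affinity for the hapten NP, and the CD45.1/2 marker. They were either Csk(+/+) or Csk(fl/fl), where Csk is the kinase that restrains Src family kinases. C57BL/6J recipients of these cells received NP-CGG with alum as immunogen on day 0 and were treated with tamoxifen on days 8 and 9, and NP-binding donor light zone cells were taken on day 11. Both genotypes carried the Cre and received tamoxifen, so the comparison asks what differs once Csk is deleted late in the response. The Csk(+/+) group has 3 libraries and the group labelled Csk(f/f) has 2, given as biological replicates in the design text. The labels give neither the age of the mice, nor the promoter behind the Cre, nor whether a library pooled several mice.

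B cells move between zones of a lymphoid organ by following gradients of chemokines, lipids and oxysterols. CXCR5 brings B cells into the follicle and towards the light zone, CXCR4 holds germinal centre cells in the dark zone, and CCR7 draws cells to the T zone. S1PR1 leads lymphocytes out into blood or lymph, and its gene is a direct target of KLF2. S1PR2 signals through G alpha 13 and confines cells to the germinal centre. GPR183, also called EBI2, pulls activated B cells to the outer follicle and is kept low in germinal centre cells. Germinal centre B cells are known for high S1pr2 and low S1pr1, Ccr7 and Klf2.

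The targeted transcript had no lower FPKM under the Csk(f/f) label. Levels are in FPKM, fragments scaled by transcript length and library size. Csk(+/+) replicates 1 to 3 had 378, 436 and 415 FPKM of Csk, and Csk(f/f) replicates 1 and 2 had 453 and 476. The log2(FPKM + 1) difference was 0.18, and -0.14 once the trend of differences with transcript GC content was subtracted (the GC correction; limma adjusted p of 0.439 and 0.818). For FPKM, a two-sided exact permutation test gave p = 0.2, where the smallest p that 3 against 2 libraries allow is 0.1. A gene-level value includes exons outside a deleted part and the labels do not name the floxed exons, so the deletion was left unchecked and the groups are named by label. Estimated depth was 11.97 to 19.6 M fragments for Csk(+/+) and 23.8 and 9.57 M for the others. Csk(+/+) replicate 3 stood apart, with a limma library weight of 0.259 against 1.35 or more for the others. In a group of 2 both libraries get the same weight, so the weights cannot single out either Csk(f/f)-labelled library. Over all 10242 genes tested, 8 passed an adjusted p under 0.05 by limma (0.0781%), 4 of them as higher (0.0391%).

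**Figure D1:**
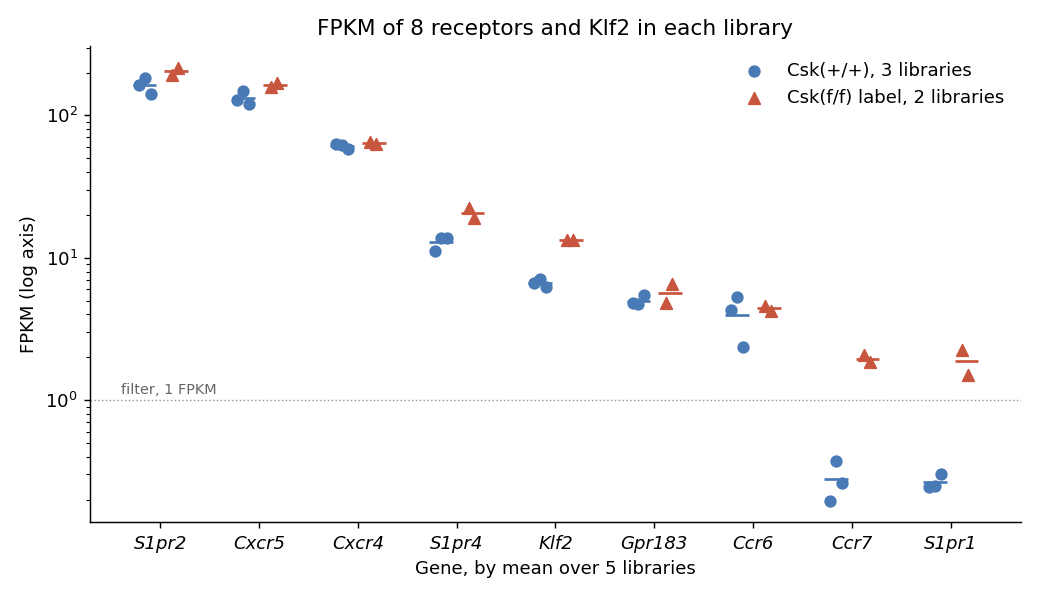
FPKM on a log axis for each of the 9 genes in 3 Csk(+/+) libraries (circles) and 2 libraries labelled Csk(f/f) (triangles), with a bar at each group mean and a dotted line at 1 FPKM. S1pr2 and Cxcr5 lie above 100 FPKM in all libraries, and Ccr7 and S1pr1 lie below 1 FPKM in the 3 Csk(+/+) libraries and above it in the other 2.

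The levels of the 9 genes spanned from 0.197 FPKM, Ccr7 in Csk(+/+) replicate 1, to 217 FPKM, S1pr2 in Csk(f/f) replicate 2. FPKM is scaled by transcript length, so levels can be set side by side between genes. The order by mean was S1pr2, Cxcr5, Cxcr4, S1pr4, Klf2, Gpr183, Ccr6, Ccr7 and S1pr1. The first 5 genes held the same rank in all 5 libraries. S1pr2 and Cxcr5 overlapped in range over the libraries, but S1pr2 was the higher in 5 of 5. Cxcr4 lay apart from both of its neighbours. S1pr4, Klf2, Gpr183 and Ccr6 overlapped in range, each with the next, and Gpr183 was above Ccr6 in 4 of 5 libraries. Ccr7 and S1pr1 overlapped and changed places, with Ccr7 the higher in 2 of 5 libraries. Only 517 genes of the table had a higher mean than S1pr2, and 656 had a higher mean than Cxcr5. All 9 genes passed the filter on low values, Ccr7 and S1pr1 only through the libraries labelled Csk(f/f).

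Klf2 and 3 of the receptors had higher values in both libraries labelled Csk(f/f), by 7-fold for Ccr7 and S1pr1, 2.00-fold for Klf2 and 1.61-fold for S1pr4 in mean FPKM. None of the 4 passed the adjusted threshold in the main limma fit, which gave all 5 libraries equal weight. Some alternative fits, given below, did pass them. S1pr2 and Cxcr5 were higher by less, and Cxcr4, Gpr183 and Ccr6 overlapped between the groups. Of all genes tested, 20.7% lay apart with the Csk(f/f)-labelled pair higher. Ccr7 and S1pr1 reached the filter only through that pair, so they had to differ. Their fold values rest on about 6 to 15 fragments in each Csk(+/+) library. These are bulk libraries, so a few cells with much of a transcript and many cells with a little of it cannot be told apart.

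Klf2 encodes a zinc finger transcription factor of quiescent lymphocytes that switches on S1pr1. Csk(+/+) replicates had 6.69, 7.06 and 6.20 FPKM, against 13.2 and 13.3 under the Csk(f/f) label. Both of the latter were about double any of the former, and each group was tight (6.65 ± 0.430, SD, n = 3, and 13.3 ± 0.0896, SD, n = 2). The log2(FPKM + 1) difference was 0.90 ± 0.17 (SE), with a 95% interval of 0.52 to 1.29 and a limma adjusted p of 0.128 (unadjusted 0.000748). Without Csk(+/+) replicate 3 the difference was 0.86 and passed (limma adjusted p = 0.0364, with a range over all alternatives of 0.0223 to 0.779). The Klf2 transcript has a GC content of 61.6%, above 98.0% of the genes tested. Differences between the groups followed GC content across genes, and after subtracting that trend the Klf2 difference was 0.57 ± 0.13 (SE, limma adjusted p = 0.348).

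The bases upstream of the Klf2 start are shown because MEF2 factors, activated by the kinase ERK5, are known to induce Klf2 through a site there in endothelial cells, and those factors were measured in the same libraries. The upstream bases of S1pr4 and S1pr2 are shown for comparison. Of the sphingosine phosphate receptors in the set described here, these 2 lay well above the filter. The sequences are from RefSeq on GRCm38.p6, 250 bases up to the start, 5′ to 3′ along the gene. Klf2 is at chr8:72318812-72319061 (plus strand), S1pr4 at chr10:81500138-81500387 (minus) and S1pr2 at chr9:20976794-20977043 (minus). Capitals mark matches to the MEF2 consensus or to CACCC, the core bound by KLF proteins, read on both strands (GGGTG on the other), and the 2 motifs do not overlap.
Klf2: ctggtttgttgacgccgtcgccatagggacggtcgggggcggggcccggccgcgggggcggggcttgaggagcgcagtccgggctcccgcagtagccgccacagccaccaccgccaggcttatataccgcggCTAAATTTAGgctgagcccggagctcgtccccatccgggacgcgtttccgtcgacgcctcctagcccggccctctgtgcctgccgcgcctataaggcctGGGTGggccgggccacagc
S1pr4: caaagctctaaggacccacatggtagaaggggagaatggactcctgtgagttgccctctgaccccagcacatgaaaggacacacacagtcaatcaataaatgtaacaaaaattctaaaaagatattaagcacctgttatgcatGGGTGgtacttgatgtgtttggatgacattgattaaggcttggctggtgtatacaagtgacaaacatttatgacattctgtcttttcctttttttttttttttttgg
S1pr2: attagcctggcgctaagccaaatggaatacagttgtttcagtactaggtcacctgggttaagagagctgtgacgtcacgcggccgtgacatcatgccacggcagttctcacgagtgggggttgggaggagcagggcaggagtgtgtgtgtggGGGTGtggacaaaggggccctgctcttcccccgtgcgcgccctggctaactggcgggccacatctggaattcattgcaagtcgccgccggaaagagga

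The MEF2 consensus matched once upstream of Klf2, as CTAAATTTAG, at positions -118 to -109 counted from the start. It occurred in 2.92% of the 32851 promoters of the table over the same 250 bases. CACCC was present upstream of all 3 genes and of Cxcr4, and in 52% of all promoters. The FOXO core GTAAACA, searched on both strands, had no match in the promoters of the 6 genes with an entry and was present in 3.17% of all promoters. S1pr1, Ccr7 and Cxcr5 were the members with no entry. A match is a run of letters and not a measured site.

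Of 17 other genes of Klf2 regulation, 14 could be tested and 0 passed by limma over all genes. At an unadjusted limma p below 0.05, Mapk7 was higher (1 of 14) and Mef2c lower (1 of 14). Over all genes tested, 8.07% were higher and 13.6% lower at that level, so these counts do not stand out. Mef2c, a MEF2 factor of B cells, had 51.7, 47.7 and 47.9 FPKM in Csk(+/+), against 36.1 and 24.8 in the Csk(f/f)-labelled pair (limma adjusted p = 0.154). Both of the latter were below all 3 of the former, the opposite direction to Klf2, and the GC correction took the log2 difference from -0.69 to -0.26. Mef2d went in the direction of Klf2 without overlap, at 28.9, 33.5 and 20.1 FPKM, then 33.7 and 38.1 (limma adjusted p = 0.303). The GC correction took its log2 difference from 0.40 to 0.17. Mef2a overlapped between the groups. The part of these factors in the Klf2 difference was not tested. Mef2b, a MEF2 factor abundant in germinal centre cells, was at 322, 336 and 373 FPKM and at 382 and 393 FPKM. Mapk7, which encodes ERK5, had 12.1 ± 2.30 (SD, n = 3) and 17.8 ± 3.25 FPKM (SD, n = 2). The GC correction took the log2 difference of Mapk7 from 0.53 to 0.24 (limma adjusted p = 0.676), with the unadjusted p no longer below 0.05. Foxo1, a forkhead factor upstream of Klf2 in lymphocytes, had 31.5 ± 8.71 (SD, n = 3) and 31.6 ± 2.33 FPKM (SD, n = 2).

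S1pr1 encodes the exit receptor itself. Csk(+/+) values were 0.246, 0.250 and 0.302 FPKM, against 2.25 and 1.49 under the Csk(f/f) label. The lower of the latter was still above all 3 of the former. By the annotated transcript length these values stand for about 12, 15 and 11 fragments against 163 and 43. The log2(FPKM + 1) difference was 1.17 ± 0.20 (SE, limma adjusted p = 0.128, unadjusted 0.000444). With a GC content of 48.8% S1pr1 lay near the middle of all genes, and the GC correction left its difference at 1.23. S1pr1 reached the filter only through the Csk(f/f)-labelled pair, which favours a call, so its p-values are given as a description. Leaving out Csk(+/+) replicate 3 gave 1.19 (limma adjusted p = 0.0354, with a range over the alternatives of 0.0209 to 0.388, and 0.0634 when GC-corrected too). Even in the Csk(f/f)-labelled pair S1pr1 was at 1.17% and 0.687% of the S1pr2 level, against 0.149%, 0.137% and 0.214% in Csk(+/+).

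Ccr7 encodes the receptor for the T zone chemokines CCL19 and CCL21. Its FPKM was 0.197, 0.372 and 0.262 in Csk(+/+), against 2.07 and 1.84 in the Csk(f/f)-labelled pair. Again no value of one group reached into the other. The values stand for about 6, 14 and 6 fragments against 98 and 35. The log2(FPKM + 1) difference was 1.21 ± 0.18 (SE, limma adjusted p = 0.128, unadjusted 0.000217), and 1.03 after the GC correction. Ccr7 too reached the filter only through that pair, and its p-values are likewise a description. Leaving out Csk(+/+) replicate 3 gave 1.205 (limma adjusted p = 0.0315, with a range over the alternatives of 0.0209 to 0.388, and 0.0684 when GC-corrected too). Set against Cxcr5, the follicle receptor, Ccr7 was at 0.152%, 0.248% and 0.218% in Csk(+/+) and at 1.32% and 1.08% in the others, so Cxcr5 stayed far the more abundant in each library.

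S1pr4 encodes a sphingosine phosphate receptor found mainly in lymphoid and myeloid cells. It was at 11.1, 13.8 and 13.7 FPKM in Csk(+/+), against 22.4 and 18.9 FPKM in the Csk(f/f)-labelled pair, without overlap. The log2(FPKM + 1) difference was 0.65 ± 0.17 (SE), with a limma adjusted p of 0.155 (unadjusted 0.00623). S1pr4 is GC-rich (59.3%), and the GC correction took its difference to 0.33 ± 0.17 (SE, limma adjusted p = 0.571). It passed in 1 of 16 alternatives, with libraries weighted (limma adjusted p = 0.0422, highest 0.779).

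S1pr2, the receptor that keeps B cells in the germinal centre, was at 165, 182 and 141 FPKM in Csk(+/+), against 192 and 217 FPKM in the Csk(f/f)-labelled pair. The groups did not overlap, yet the 95% interval of the log2(FPKM + 1) difference, -0.02 to 0.68 around 0.33, included 0 (limma adjusted p = 0.248). Among the other sphingosine phosphate receptors, S1pr3 was at 27.5, 29.2 and 18.6 FPKM, then 31.5 and 32.3, and S1pr5 was at 0.0253 FPKM in Csk(+/+) replicate 1 and listed at 0 in the other 4 libraries. Of the receptors for this lipid in these cells, S1pr2 was thus the most abundant and S1pr1 among the least, in both groups.

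Gpr183 was at 4.79, 4.74 and 5.43 FPKM in Csk(+/+), against 4.78 and 6.53 FPKM in the Csk(f/f)-labelled pair. The groups overlapped, and the log2(FPKM + 1) difference of 0.14 (95% interval -0.33 to 0.61, limma adjusted p = 0.686) became 0.41 with the GC correction (limma adjusted p = 0.548). Gpr183 has a GC content of 44.9%, the lowest of the 9 genes, and lies within Ubac2, a gene of the other strand. The Gpr183 level was 2.90%, 2.60% and 3.85% of that of S1pr2 in Csk(+/+), and 2.49% and 3.01% in the others. Ch25h and Cyp7b1, which encode the enzymes that make its ligand, were listed at 0 in all 5 libraries.

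The 2 receptors that set the position between the zones differed little. Cxcr5 was at 129, 150 and 120 FPKM in Csk(+/+), against 157 and 170 FPKM in the Csk(f/f)-labelled pair. Both of the latter were above the former, and the log2(FPKM + 1) difference was 0.30 (95% interval -0.02 to 0.63, limma adjusted p = 0.252), and 0.16 after the GC correction (limma adjusted p = 0.725). An exon of Cxcr5 overlaps one of Bcl9l on the other strand, whose mean level was 11.4 ± 4.27 FPKM (SD, n = 3) and 14.5 ± 2.16 (SD, n = 2). Without a stated strand setting, reads from the overlap cannot be told apart. Cxcr4 was the most even of the 9 genes, at 63.5, 61.5 and 58.6 FPKM in Csk(+/+), against 65.2 and 62.8 in the Csk(f/f)-labelled pair. Its log2(FPKM + 1) difference was 0.06 (95% interval -0.21 to 0.34, limma adjusted p = 0.762), and 0.27 after the GC correction (limma adjusted p = 0.5). The Cxcr4 level was 49.1%, 41.1% and 48.7% of that of Cxcr5 in Csk(+/+), and 41.4% and 36.9% in the others, which overlap.

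Ccr6, the CCL20 receptor found on memory B cells and their precursors, was at 4.28, 5.29 and 2.35 FPKM in Csk(+/+), against 4.61 and 4.20 FPKM in the Csk(f/f)-labelled pair. The low value of Csk(+/+) replicate 3 set the sign of the difference. It was 0.17 with that library (95% interval -0.49 to 0.83, limma adjusted p = 0.736) and -0.09 without it (limma adjusted p = 0.74, with a range over the alternatives of 0.409 to 1).

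**Figure D2:**
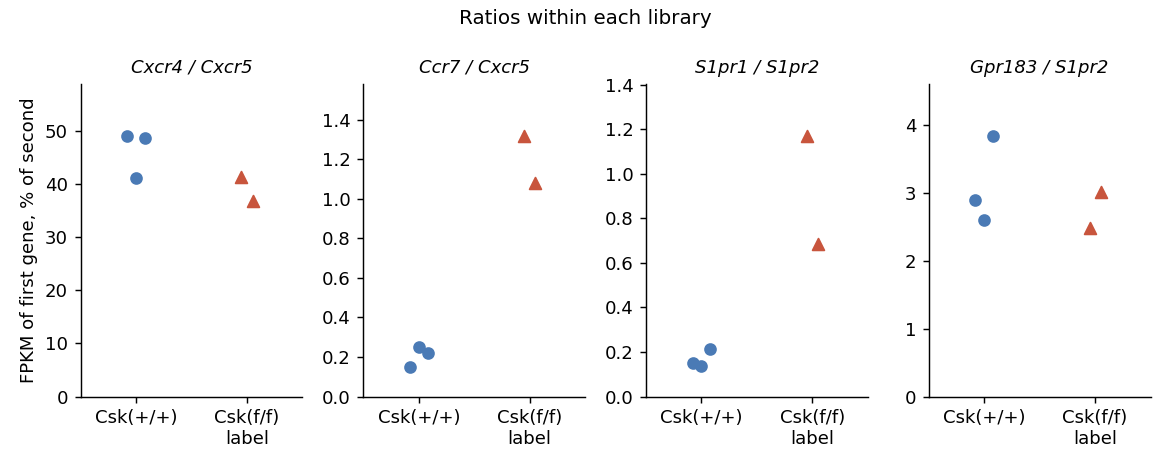
Level of one gene as a percent of another within each library, for 4 pairs, in 3 Csk(+/+) libraries (circles) and 2 labelled Csk(f/f) (triangles), each axis from 0. The groups lie apart for Ccr7 over Cxcr5 and S1pr1 over S1pr2 and overlap for Cxcr4 over Cxcr5 and Gpr183 over S1pr2. Ccr7 and S1pr1 reached the filter only through the Csk(f/f)-labelled pair, which favours such a separation.

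The ratio of Ccr7 to Cxcr5 was higher in the Csk(f/f)-labelled pair by 0.91 on the log2(FPKM + 1) scale, and that of S1pr1 to S1pr2 by 0.84, with no overlap in either. Ccr7 and S1pr1 reached the filter only through that pair, which favours such a separation, so both ratios are given as a description. Cxcr4 to Cxcr5 differed by -0.24 and Gpr183 to S1pr2 by -0.19, both with overlap, and both changed sign with the GC correction (0.11 and 0.18).

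**Figure D3:**
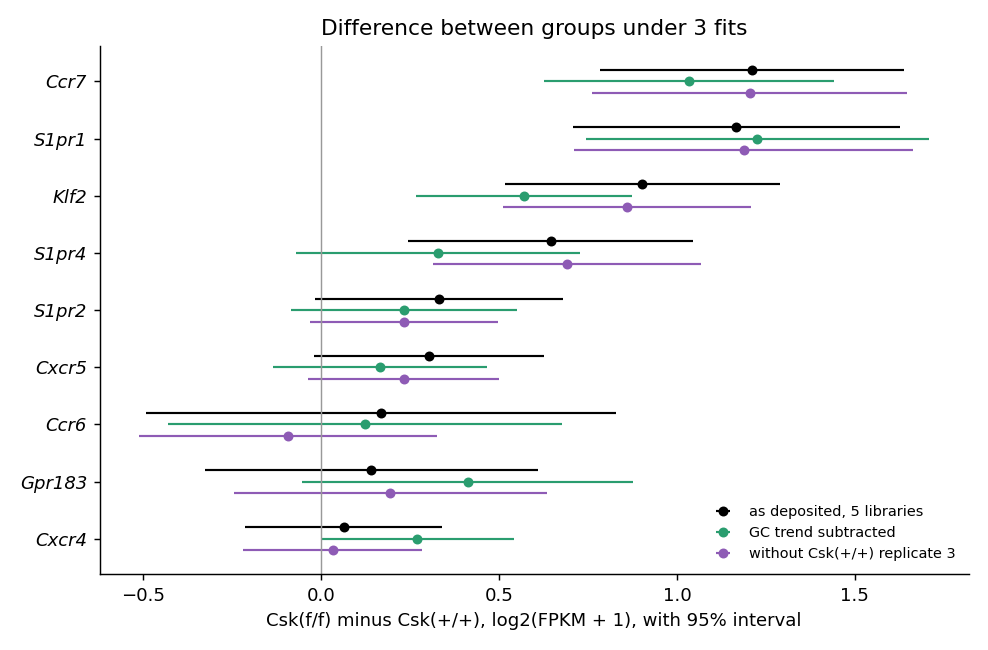
Difference in log2(FPKM + 1), Csk(f/f)-labelled minus Csk(+/+), for each gene with its 95% interval from limma, as deposited, GC-corrected, and with Csk(+/+) replicate 3 left out. The intervals of Ccr7, S1pr1 and Klf2 lie above 0 in all 3 fits, and that of S1pr4 reaches below 0 after the GC correction. Those of Ccr7 and S1pr1 are a description only, as both genes reached the filter only through the Csk(f/f)-labelled pair.

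Of the 9 genes, 0 passed by limma in the main fit after adjustment over all genes. Ccr7 and S1pr1 entered the fit only through the Csk(f/f)-labelled pair, so they had to differ, and their calls are not counted here. The other 7 members were above 1 FPKM in every library. Their median difference was 0.30, beside -0.01 over all genes tested, and all 7 differences were positive in the main fit. Those of Ccr6 and Gpr183 turned negative when 1 library was left out, and that of Ccr6 also with library weights or a block. At an unadjusted p under 0.05, Klf2 and S1pr4 were higher (2 of 7) and 0 were lower, where 8.07% of all tested genes were higher and 13.6% lower. Klf2, S1pr4, S1pr2 and Cxcr5 had no overlap between the groups (4 of 7), against 20.7% of all tested genes in that direction. Without Csk(+/+) replicate 3, Klf2 passed as higher (1 of 7), where 1.26% of all genes did. Klf2 also passed with the replicate number as a block (1.07% of all genes) and, with S1pr4, when libraries were weighted (1.89%). With the block and the GC correction together 0 of 7 passed (0.889% of all genes), and Klf2 had a limma adjusted p of 0.0964 with the GC correction and Csk(+/+) replicate 3 left out.

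**Figure D4:**
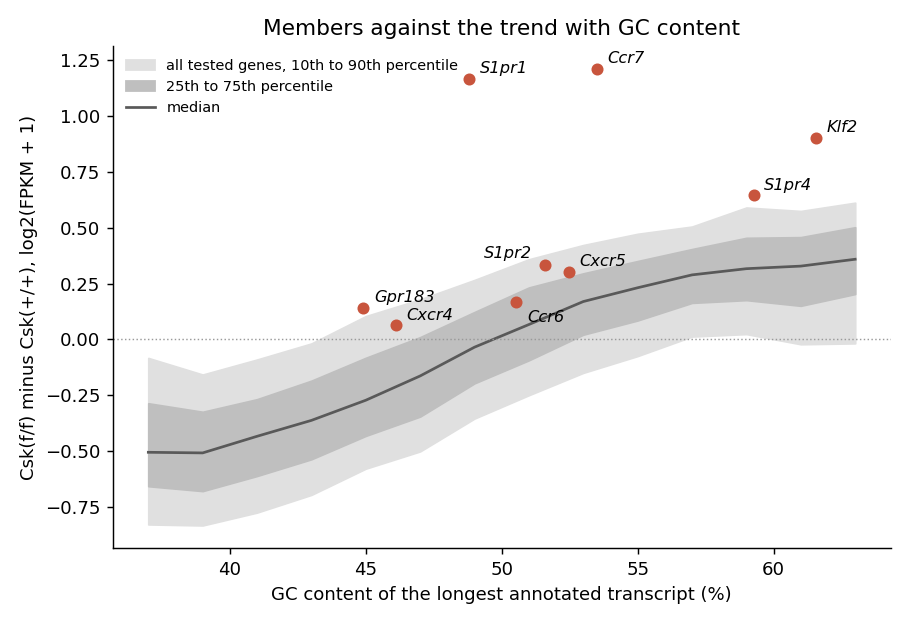
Difference between the groups in log2(FPKM + 1) against transcript GC content, with the 9 genes as points, the median of all tested genes as a line and their 25th to 75th and 10th to 90th percentiles as bands. The median of all genes climbs with GC content, and Ccr7, S1pr1, Klf2, S1pr4 and, by a small margin, Gpr183 lie above the 90th percentile of their bins. For Ccr7 and S1pr1 the filter, reached only through the Csk(f/f)-labelled pair, favours a high place.

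Across 10119 genes, which are not independent replicates, the difference followed GC content with a Spearman rho of 0.71. Genes with the GC content of Klf2 had a median difference of 0.33 and a 90th percentile of 0.57, against 0.90 for Klf2. For genes with the GC content of S1pr4 these were 0.32 and 0.59, against 0.65 for S1pr4. Near the GC content of Cxcr4 the median was -0.16, and near that of Gpr183 -0.27, so both lay above the trend while differing little between the groups. The part of GC content in the differences of the single members was not tested beyond the correction.

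The wider list held 115 other genes of homing, lipid synthesis and receptor coupling, of which 69 could be tested. By limma 0 passed over all genes. At an unadjusted limma p below 0.05, 10 of 69 were higher and 7 of 69 lower, beside 8.07% and 13.6% of all genes tested. The median difference was 0.04, beside -0.01 over all genes tested. Of 18 other chemokine receptors, 13 were below 1 FPKM in all 5 libraries. The 8 ligand genes, Cxcl12, Cxcl13, Ccl19 and Ccl20 among them, were below 1 FPKM in all libraries too. In the coupling group 29 genes were tested, and the unadjusted p was below 0.05 for 2 with higher values (Rgs16 and Grk6) and for 4 with lower values (Rgs2, Rgs10, Rgs13 and Gnai3). Over all genes tested the shares were 8.07% and 13.6%. RGS proteins switch off G protein signalling by chemokine receptors.

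Rgs10 was at 41.8, 44.2 and 52.5 FPKM for Csk(+/+) and at 23.8 and 24.2 for the Csk(f/f) label (log2 difference -0.91, limma adjusted p = 0.128). Rgs2 was at 40.4, 41.5 and 40.5 FPKM, then 26.222 and 26.2255. Rgs13, abundant in germinal centre cells, had 41.2, 38.8 and 73.9 FPKM, then 26.8 and 15.5. Rgs16 had the opposite order, with 1.66, 1.15 and 1.09 FPKM, then 2.90 and 3.50. Gnai3, an inhibitory G alpha subunit used by these receptors, had 29.8 ± 6.80 and 16.6 ± 3.22 FPKM. The groups lay apart for all 5 of these genes, and none passed (limma adjusted p of 0.128 to 0.155). All 5 were named for their small p-values, which favours such a separation. Of all 10242 genes tested, the groups lay apart for 2115 as higher and for 2509 as lower. The GC correction left the log2 difference of Rgs10 at -0.96 and took that of Rgs16 from 0.87 to 0.70. It took Rgs13 from -1.23 to -0.62, Gnai3 from -0.80 to -0.39 and Rgs2 from -0.62 to -0.29. Without Csk(+/+) replicate 3, Rgs10, Rgs2 and Gnai3 passed as lower (limma adjusted p = 0.0262, 0.0411 and 0.049), where 2.79% of all genes did.

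The abundant parts of the coupling machinery differed less before the GC correction. Gnai2, the main inhibitory G alpha subunit of lymphocytes, was at 418, 458 and 500.1 FPKM, then 498 and 523, which overlap. Rac2 had means of 349 and 388 FPKM, Rhoa 307 and 321, Gnb2 290.0 and 326, and the receptor kinase genes Adrbk1 and Grk6 had 224 and 281, and 163 and 208. Their limma adjusted p-values were 0.212 or more. Rac2, Adrbk1 and Grk6 lay apart as higher, as did 20.7% of all genes tested, while Rhoa and Gnb2 overlapped. The GC correction took the log2 difference of Rhoa from 0.06 to 0.41 (limma adjusted p = 0.479). It brought those of Gnai2, Gnb2, Rac2, Adrbk1 and Grk6 to between -0.15 and 0.07. Cd69, whose product pulls S1PR1 from the cell surface, had 13.3, 10.9 and 7.49 FPKM in Csk(+/+) and 9.26 and 4.66 in the others, which overlap. Sphingosine phosphate enzymes were measured too, with Sgpl1, the lyase that breaks the lipid down, at 21.2 ± 4.55 and 31.5 ± 3.24 FPKM (limma adjusted p = 0.192).

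**Figure D5:**
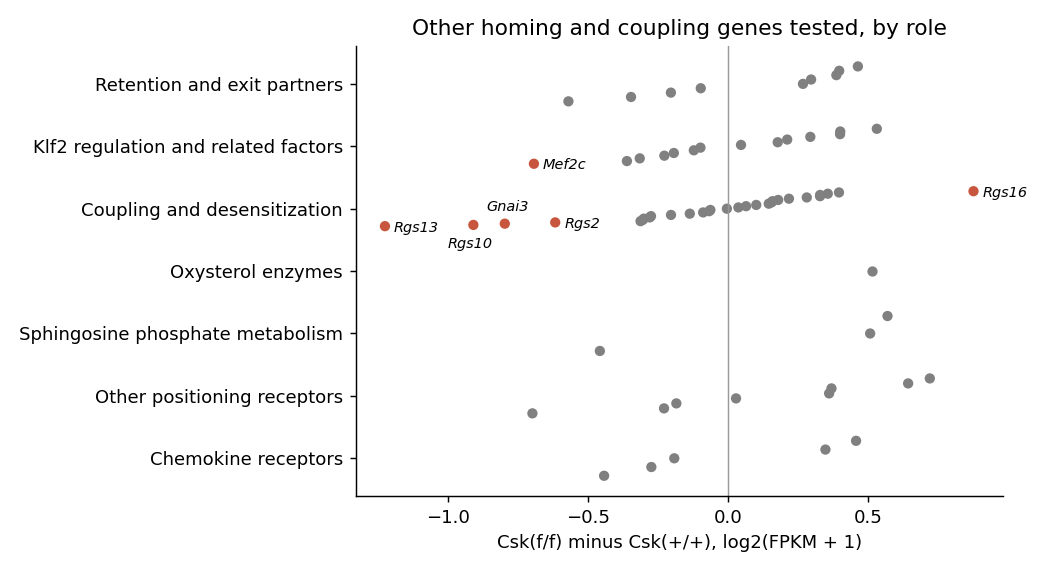
Difference in log2(FPKM + 1), Csk(f/f)-labelled minus Csk(+/+), for the 69 tested genes of the wider list, 1 point a gene, in rows by role, with the 6 smallest p-values in red and named. The points fall on both sides of 0, with Rgs13 lowest and Rgs16 highest.

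Klf2, S1pr1 and Ccr7 are also expressed by naive B cells and T cells, so the markers of other cells are given beside them. Cd3e and Cd3g were listed at 0 in all 5 libraries and Cd3d reached at most 0.41 FPKM. The 7 T cell markers summed to 7.41 to 9.27 FPKM in Csk(+/+) and 11.2 to 14.9 in the others, nearly all of it Lat and Thy1. Of the 6 markers of naive or follicular B cells measured, the sum was 615 to 736 FPKM in Csk(+/+) and 825 to 859 in the others, without overlap. Most of that was Fcer2a (347, 391 and 359 FPKM, then 423 and 477) and Faim3 (222, 296 and 293, then 367 and 349). Cr2 in the same list had the opposite order without overlap (17.5, 22.4 and 14.3 FPKM, then 11.6 and 11.1), and Bach2, Satb1 and Cd55 overlapped. Genes near the GC content of Cr2 (41.4%) had a median log2 difference of -0.43, against -0.61 for Cr2. Near those of Fcer2a and Faim3 the medians were 0.07 and 0.17, against 0.30 and 0.42 for these genes. The memory list, which holds Ccr6, summed to 21.0 to 33.8 and 26.3 to 28.7 FPKM. Macrophage markers summed to 2.69 to 8.62 and 11.3 to 13.3 FPKM, nearly all Lyz2, with Cd14 at or near 0. The naive B cell, T cell and macrophage sums were thus higher in the same libraries as Klf2, S1pr1, Ccr7 and S1pr4, and their part in those differences was not tested. Erythroid markers summed to 140 to 783 and 100 to 380 FPKM. Germinal centre genes, S1pr2 among them, summed to 807 to 853 and 823 to 838 FPKM, light zone genes to 804 to 849 and 936 to 957, and dark zone genes, Cxcr4 among them, to 217 to 232 and 180 to 197. Of the 6 light zone genes 3 had higher and 3 lower means in the Csk(f/f)-labelled pair. Cd83 made up most of the higher sum (379, 403 and 388 FPKM, then 515 and 487), while Cd86 and Bcl2a1a were lower without overlap. Near the GC content of Cd83 the median log2 difference of all genes was 0.07, against 0.36 for Cd83. For Cd86 the values were -0.36 and -0.34, and for Bcl2a1a -0.27 and -0.32. The part of GC content in the marker differences was not tested. The plasma cell gene Prdm1 stayed at or below 0.46 FPKM.

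For 3 members the genes with the most similar profile were sought over the 5 libraries, by the distance between log2(FPKM + 1) values centred on each gene's mean, among about 6730 genes. Nearest to Klf2 were Tbxa2r, the thromboxane receptor (distance 0.15), Amdhd2 (0.16) and Dtx1, a Notch pathway ubiquitin ligase (0.20). Dtx1 had 60.8, 71.4 and 57.7 FPKM in Csk(+/+) and 105 and 116 in the others. Nearest to S1pr1 were Vat1 (0.27), Bri3 (0.34) and Uap1l1 (0.34). Nearest to Cxcr4 were Nup133 (0.05), Bola1 (0.06) and Ppp1r8 (0.06), whose values were as even as its own.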

How the data were processed

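Expression was measured in 5 libraries of sorted light zone B cells, 3 labelled Csk(+/+) and 2 labelled Csk(f/f). The authors deposited FPKM values per gene, made on the mm9 genome with TopHat2 2.0.8 and Cufflinks 2.1.1, per the submitters' processing notes. The annotation, strand setting and any scaling between libraries are not given in the sources used here. The table held 23234 genes, after 1 repeated header line was dropped.

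The 10242 genes that reached 1 FPKM in 2 or more libraries entered a limma 3.58.1 fit on log2(FPKM + 1) (R 4.3.3, trended prior) and Benjamini-Hochberg adjustment over all of them. The threshold for passing was an adjusted p of 0.05. Fold changes on this scale understate the change of low genes. Transcript GC content and length came from the longest GENCODE transcript by gene name (GRCm38). The GC correction subtracted each library's lowess trend against GC content (span 0.3). For depth, the smallest increments of FPKM among genes of 1500 nt or longer were taken as 1 fragment. The fit was tested on simulated data.

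The members and lists were chosen with earlier results of these data known. All members were named. From the wider list, up to 6 genes with the smallest p and 6 with the highest mean were named. For Klf2, S1pr1 and Cxcr4, the 3 nearest profiles were named among protein-coding genes with a mean of at least 5 FPKM, without predicted genes, small RNAs and receptor segments. Further names come from a list or an overlap, picked once values were known. Alternatives covered the pseudocount, filter, scaling, GC content, library weights, a block for replicate number and leaving out single libraries. Labels do not tie same-numbered libraries to each other, and p-values measure the spread between these libraries.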

Additional observations from a re-analysis of the deposited data

How the results depend on the processing

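With 3 and 2 libraries and no deposited counts, the power to call single genes was limited, and Ccr7 and S1pr1 rest on few fragments in the Csk(+/+) libraries. The count of all genes passing (8) became 4 with no filter, 671 with library weights, 492 with the replicate block, 162 with the replicate block and the GC correction, 40 with the GC correction without Csk(+/+) replicate 3, and 5 to 411 with 1 library left out. Of the members 0 passed in the main fit, 4 with library weights and 3 with the replicate block. With the block and the GC correction 2 passed (Ccr7 and S1pr1). With the GC correction 0 passed when Csk(+/+) replicate 3 was also left out, and 0 to 3 passed with 1 Csk(+/+) library left out. Ccr7 and S1pr1, which the filter favours, are among each of the nonzero counts. The wider list had 0, then 7, 5, 1 and, without Csk(+/+) replicate 3 after the GC correction, 1, and 0 to 3 with 1 library left out. The most calls among members and in the wider list under leave-one-out came without Csk(+/+) replicate 3. In the block fit that library has no partner and adds nothing to the difference. Same-numbered libraries did not deviate together (correlations of -0.13 and 0.11), so they share only a number.

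The difference of Ccr6 turned to -0.0927 with the replicate block, -0.0367 with library weights, -0.078 with the block and GC correction, and -0.0803 with the GC correction and Csk(+/+) replicate 3 left out. Leaving out 1 library gave -0.0927 (Csk(+/+) replicate 3) to 0.3612 for Ccr6 and -0.0499 (Csk(f/f) replicate 2) to 0.3332 for Gpr183. The Csk transcript, at 0.18, turned to -0.14 with the GC correction, -0.0752 when Csk(+/+) replicate 3 was also left out and -0.0738 with the block added. Ccr7 over Cxcr5 moved from 0.91 to 2.17 and 0.10 with pseudocounts of 0.1 and 5, and S1pr1 over S1pr2 from 0.84 to 2.07 and 0.0568, as a larger pseudocount compresses low values. Cxcr4 over Cxcr5 turned from -0.24 to 0.11 under the GC correction and 0.15 when Csk(+/+) replicate 3 was also left out, and Gpr183 over S1pr2 from -0.19 to 0.18 and 0.32. The cause of the other shifts was not tested. The median difference of all members that a fit tested was 0.33 in the main fit and ranged from 0.23 to 0.43 over the alternatives. Ccr7 and S1pr1, which the filter favours, count in it wherever they were tested, so it is a description only. Over the members above 1 FPKM in all 5 libraries the main fit gave 0.30. Ccr7 and S1pr1 could not be tested with a filter at 5 FPKM or without either library labelled Csk(f/f), and Ccr6 not with that filter.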
